A study of Mus musculus with 13 samples.

Results

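Chemokines and chemokine receptors of the mouse olfactory bulb were followed through 8 genes: the ligands Ccl12, Ccl2, Cxcl10, Cxcl12 and Cx3cl1, the receptors Ccr2 and Cxcr4, and the atypical receptor Ackr3. They were found by symbol among the 34745 genes of the expression table, each matching 1 row. All 8 were selected on measured values of these libraries, namely their levels and fold changes under exposure, so their responses to both doses are given as a description and support nothing. The filter on low counts kept 17467 genes and 7 of the 8 members. Ccl2 fell under it and is given by its counts.

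The study sequenced olfactory bulb RNA of wild-type C57BL/6 mice aged 7 to 8 weeks, in 13 libraries, after exposure to fine particulate matter (PM2.5, airborne particles small enough to be inhaled deeply). The groups were 3 libraries at 3 mg/kg and 4 untreated controls in a 1st set, and 3 libraries at 10 mg/kg and 3 untreated controls in a 2nd set. Both doses carry the label "/3 day", whose meaning is not given in the sources used here, nor are the route of exposure and what parts the sets. The labels do not tie replicates to separate animals, so p-values measure only the spread between these samples.

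Chemokines are small secreted or membrane-tethered proteins that guide leukocytes and other cells by binding G protein coupled receptors. Atypical receptors bind chemokines without the usual G protein signalling and so take them up and shape their gradients. In brain, glia and vessel cells release Ccl2, Ccl12 and Cxcl10 under inflammation, while Cxcl12 and Cx3cl1 are made in the healthy tissue, Cx3cl1 chiefly by neurons facing microglia.

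The family is named for the spacing of its first cysteines, and the coding sequence around them is shown for the 5 ligands because it tells their classes apart. In each line from GENCODE M21 transcripts, 5′ to 3′, the capitals mark the codons of these cysteines. No codon lies between them in Ccl12 and Ccl2 (CC ligands), 1 in Cxcl10 and Cxcl12 (CXC ligands) and 3 in Cx3cl1 (the CX3C ligand).
Ccl12: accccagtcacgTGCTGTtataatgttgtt
Ccl2: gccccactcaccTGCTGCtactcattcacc
Cxcl10: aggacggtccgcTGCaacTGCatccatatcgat
Cxcl12: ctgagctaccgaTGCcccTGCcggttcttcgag
Cx3cl1: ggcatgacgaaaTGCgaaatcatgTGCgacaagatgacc
No stretch of 50 bases in the exons of Ccl12, Ccl2, Cxcl12, Cx3cl1, Cxcr4 or Ackr3 recurred in another annotated gene. In Ccr2, 1.91% of such stretches did, and in Cxcl10 3.59% did, all in Art3, which overlaps it on the opposite strand.

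The 250 bases before the start of the 3 members that passed the test at 10 mg/kg are shown next, from RefSeq (GRCm38.p6), 5′ to 3′ on the strand of the gene. Ccl12 (chr11:82101595-82101844, plus strand) and Cxcl10 (chr5:92348890-92349139, minus strand) were higher, and Cxcl12 (chr6:117168285-117168534, plus strand) was lower. Capitals mark matches, on either strand, to motifs bound by NF-kB, by interferon-activated factors (GAAANNGAAA and TTCNNNGAA), by AP-1 (TGANTCA) and by the TATA-binding protein (TATAAA).
Ccl12: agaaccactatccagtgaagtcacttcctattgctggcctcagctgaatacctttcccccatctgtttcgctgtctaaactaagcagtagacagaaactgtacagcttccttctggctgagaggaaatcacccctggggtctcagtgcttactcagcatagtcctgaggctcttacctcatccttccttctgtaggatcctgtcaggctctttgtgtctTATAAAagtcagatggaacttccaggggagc
Cxcl10: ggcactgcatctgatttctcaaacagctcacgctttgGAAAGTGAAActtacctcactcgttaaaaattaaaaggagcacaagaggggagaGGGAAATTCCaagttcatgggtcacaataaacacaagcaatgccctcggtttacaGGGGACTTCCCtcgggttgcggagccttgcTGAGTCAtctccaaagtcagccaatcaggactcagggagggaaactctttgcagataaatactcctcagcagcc
Cxcl12: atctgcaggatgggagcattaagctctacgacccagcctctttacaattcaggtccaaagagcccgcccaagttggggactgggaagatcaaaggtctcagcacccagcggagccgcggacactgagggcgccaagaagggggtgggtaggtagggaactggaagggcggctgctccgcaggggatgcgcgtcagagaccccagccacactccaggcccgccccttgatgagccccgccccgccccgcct
Cxcl10 held an NF-kB match starting 159 bases before the start, overlapping NF-kB matches from 104 and 103 bases before it, GAAANNGAAA at 213 bases and TGANTCA at 74 bases. Ccl12 held only TATAAA, 31 bases before its start, and Cxcl12 held none of the 5 motifs. Of 32851 promoters of the same length, 7.25% held an NF-kB match, 2.98% GAAANNGAAA, 7.02% TTCNNNGAA, 6.75% TGANTCA and 12.4% TATAAA. Among the 7 members with a promoter in the table, Cx3cl1, Cxcr4 and Ackr3 also held TATAAA, and Ccr2 held no match. These are matches of letters in 1 window and say nothing of binding.

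Total counts ran from 14.3 to 14.7 M at 3 mg/kg against 13 to 14.1 M in the controls of the 1st set, and from 20.2 to 25.5 M at 10 mg/kg against 15.4 to 27 M in the controls of the 2nd. Markers of bulb neurons, such as the tyrosine hydroxylase gene Th, were summed in CPM (counts scaled to a common library total). At 10 mg/kg they summed to 4070 to 4470 CPM, below the 4670 to 5330 CPM of the controls of the 2nd set. At 3 mg/kg they summed to 4370 to 4550 CPM, above the 3950 to 4350 CPM of the controls of the 1st set. None of these 8 markers had an adjusted p under 0.05 at either dose, and the cause of the shifts was not tested. The series is described as male, yet Xist, which coats the inactive X chromosome, had 0.0992 to 0.555 CPM in the 6 libraries of the 2nd set and 2250 to 2710 CPM in the 7 of the 1st. Together 4 Y-linked genes had 177 to 230 CPM in the 2nd set and 0 to 0.21 CPM in the 1st. Each dose was given in 1 set, so dose, set and the state of the sex-linked genes cannot be told apart when the doses are set side by side. The members were tested in 1 edgeR fit of 4 groups across all genes, and a gene is said to have passed at a Benjamini-Hochberg adjusted p under 0.05.

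At 10 mg/kg, 3 of the 7 tested members passed edgeR's quasi-likelihood test: Ccl12 and Cxcl10 were higher than in the controls of the set and Cxcl12 was lower. Over all genes, 0.521% passed as higher and 0.12% as lower. The median log2 fold change of the 7 was 0.02, beside -0.01 over all genes, and the median of its size 0.66, beside 0.13. In bulk tissue, more RNA per cell and more cells of a type cannot be told apart.

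Ccl12 (chromosome 11, 82101845 to 82103400, mm10) is a mouse ligand of Ccr2 that attracts monocytes. It stood at 4.71, 14.3 and 6.99 CPM at 10 mg/kg, against 0.329, 0.271 and 0 CPM in the controls of the 2nd set. The libraries at 3 mg/kg held 3.54, 3.4 and 2.44 CPM, against 0.378, 0.493, 0.559 and 0.425 CPM in the controls of the 1st set. Every exposed library of either set lay above every control library of both. The log2 fold change at 10 mg/kg was 5.34 (SE 0.544, 40.4-fold), and by p it ranked 2 of all genes tested. Leaving out any 1 library kept the value between 4.77 and 5.71. It passed under 18 of 19 other settings and not when the 2nd set was fitted alone.
At 3 mg/kg the log2 fold change of Ccl12 was 2.73 (SE 0.478, 6.64-fold). No gene passed edgeR's test at that dose, where 429 genes had an unadjusted p under 0.05, 228 of them higher (1.31% of those tested), and Ccl12 again ranked 2 by p. DESeq2 called 17 genes, Ccl12 among them, a fit of the 1st set alone called 9, also with Ccl12, and limma on FPKM values called 2, without it.

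Ccl2 (chromosome 11, 82035571 to 82037453), the main monocyte attractant of the family, lies close to Ccl12 and gave few reads. It had 8, 33 and 13 counts at 10 mg/kg, against 0 counts in all 3 controls of the 2nd set. That is at least 15.8-fold higher, set against a floor of 3 counts over the control group. Such floors cover counting error only. It had 9, 2 and 5 counts at 3 mg/kg, against 2, 6, 0 and 2 counts in the controls of the 1st set, so those groups overlapped. The 10 mg/kg library with the most Ccl2, replicate 2, was also the one with the most Ccl12. Without the filter on low counts Ccl2 passed edgeR's test at 10 mg/kg, as it did with DESeq2. A gene model on the opposite strand, Gm17268, had 0 counts in all libraries.

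Cxcl10 (chromosome 5, 92346638 to 92348889) is an interferon-induced ligand of Cxcr3, the receptor of activated T and NK cells. It stood at 4.71, 3.98 and 4.79 CPM at 10 mg/kg, against 0.395, 0.58 and 0.494 CPM in the controls of the 2nd set. In the 1st set it stood at 1.8, 1.32 and 1.69 CPM at 3 mg/kg, against 0.453, 1.2, 1.47 and 0.354 CPM in the controls. The groups parted at 10 mg/kg, with exposed libraries close to each other, and overlapped at 3 mg/kg, where the controls themselves differed several-fold. The log2 fold changes were 3.15 (SE 0.4, 8.89-fold) at 10 mg/kg and 0.88 (SE 0.382, 1.83-fold) at 3 mg/kg, of which only the larger passed. At 10 mg/kg Cxcl10 passed under 18 of 19 other settings. Cxcl10 passed the filter on low counts through exposed libraries, where it was high, so nothing is read from its call. Because the strand used in counting is not given, reads of Art3 may be counted with it: Art3 had 33 to 61 counts at 10 mg/kg against 51 to 94 in the controls, a log2 fold change of -0.54 that did not pass.

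The receptor Cxcr3 gave 1 count over the 3 libraries at 10 mg/kg, against 7 over the 3 controls of the 2nd set, and 6 over the 3 libraries at 3 mg/kg, against 11 over the 4 controls of the 1st. The related ligand Cxcl9 summed to 16 counts at 10 mg/kg, 12 of them in 1 library, against 1 in its controls. Cxcl11 summed to 4 against 1, and both were under the filter. At 3 mg/kg, in 3 libraries against 4 controls, Cxcl9 summed to 18 against 8 and Cxcl11 to 0 against 4. The 10 markers of T and NK lymphocytes, Cxcr3 included, summed to 0.519 to 0.906 CPM at 10 mg/kg against 0.526 to 1.47 CPM in the controls of the 2nd set. Their sum at 3 mg/kg was 0.902 to 2.07 CPM, against 1.06 to 1.47 CPM in the controls. None of the 10 had enough counts to be tested.

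Cxcl12 (chromosome 6, 117168535 to 117181367) holds precursor cells and vessels in place through Cxcr4 and is taken up by Ackr3. It stood at 31.3, 28.6 and 39.2 CPM at 10 mg/kg, against 62.3, 43.2 and 51.5 CPM in the controls of the 2nd set. Levels at 3 mg/kg were 48.6, 53.1 and 50 CPM, against 56.4, 61, 59.5 and 51 CPM in the controls of the 1st set. All 3 libraries at 10 mg/kg were the lowest of the 13, and the groups of the 1st set overlapped. The log2 fold changes were -0.66 (SE 0.137, to 0.632 of the control level) at 10 mg/kg and -0.17 (SE 0.128) at 3 mg/kg, of which only the first passed. That call passed narrowly: it held under 5 of 20 other settings, while the log2 fold change stayed between -0.80 and -0.50. It was lost on leaving out any 1 library other than replicate 3 at 10 mg/kg or control replicate 2 of the 2nd set.
The receptors of Cxcl12 stayed near their controls. Cxcr4 (chromosome 1, 128588199 to 128592293) stood at 7.24, 9.36 and 9.9 CPM at 10 mg/kg, against 7.3, 12.4 and 7.65 CPM in the controls of the 2nd set. The 3 mg/kg libraries stood at 15.2, 13.8 and 12.3 CPM, against 12.8, 13.9, 13.8 and 16.4 CPM in the controls of the 1st set. Exposed and control libraries overlapped in both sets. Ackr3 (chromosome 1, 90203980 to 90216751) stood at 7.2 to 10.3 CPM at 10 mg/kg against 7.04 to 10.4 CPM in its controls, and at 8.81 to 11.1 CPM at 3 mg/kg against 8.65 to 10.4 CPM in the controls of the 1st set. The log2 fold changes at 10 mg/kg were -0.06 (SE 0.197) for Cxcr4 and 0.02 (SE 0.179) for Ackr3, and at 3 mg/kg -0.05 (SE 0.183) and -0.01 (SE 0.17), with no call.

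Ccr2 (chromosome 9, 124101950 to 124113557) is the receptor of Ccl2 and Ccl12 and marks inflammatory monocytes. It stood at 0.248, 0.554 and 1.04 CPM at 10 mg/kg, against 0.0658, 0.271 and 0.123 CPM in the controls of the 2nd set. The level was higher in the 1st set, at 2.07, 1.87 and 2.17 CPM at 3 mg/kg, against 1.74, 0.844, 0.838 and 0.992 CPM in the controls of the 1st set. The groups overlapped by 1 library at 10 mg/kg and did not overlap at 3 mg/kg. The log2 fold changes, 1.84 (SE 0.591) and 0.89 (SE 0.408), did not pass at either dose. Without replicate 3 at 10 mg/kg the first of them was 1.22, and without control replicate 2 of that set it was 2.60.
In all, 2 of 7 tested members (Ccl12 and Ccr2) lay wholly above their controls at 3 mg/kg, beside 3.71% of all genes, and 2 (Ccl12 and Cxcl10) did so at 10 mg/kg, beside 6.08%. Cxcl12 lay wholly below at 10 mg/kg, beside 4.36%.

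**Figure D1:**
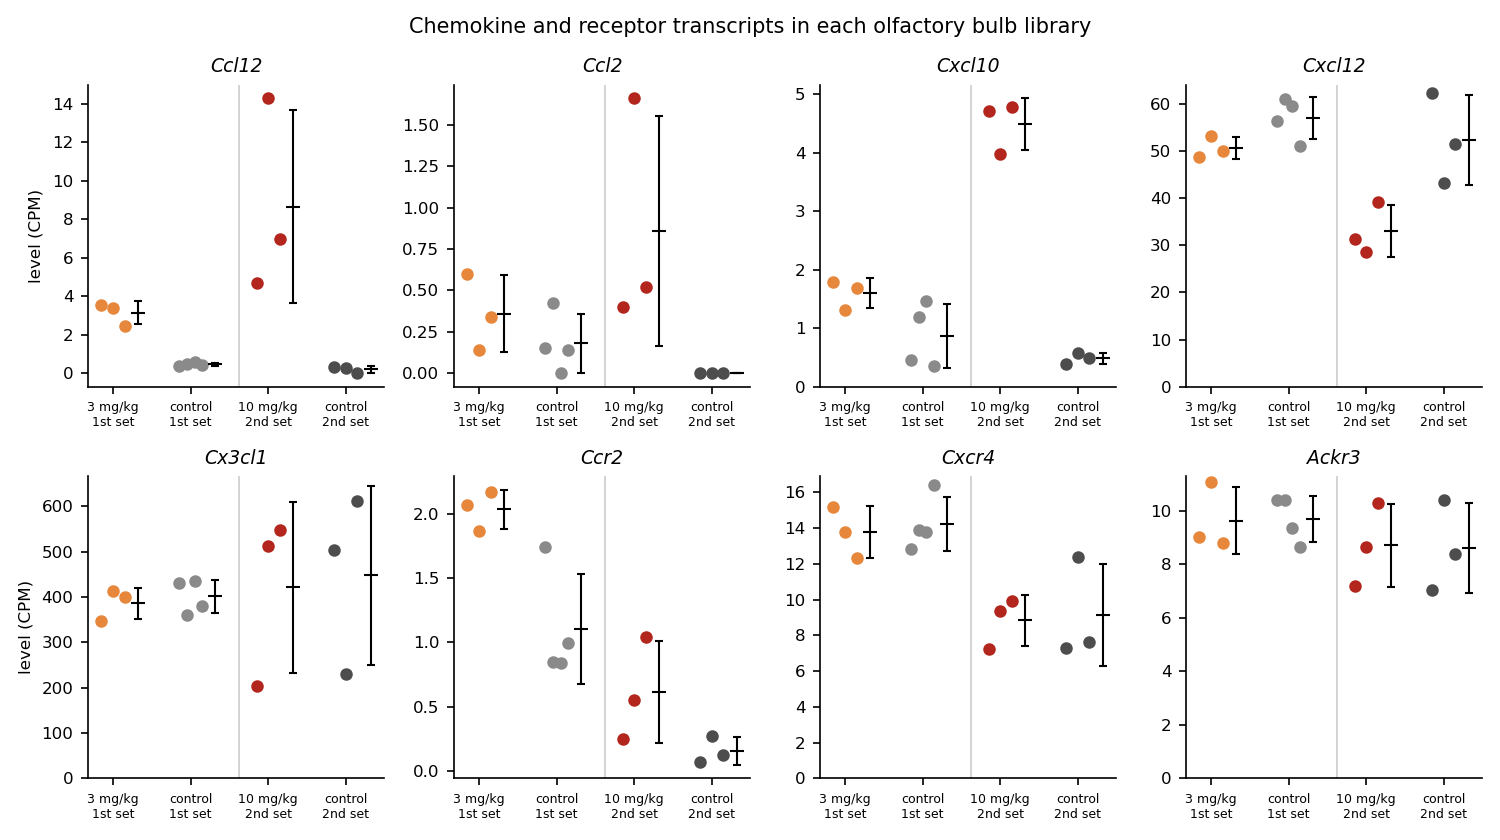
Level in CPM (vertical axis, 1 scale per gene) of the 8 chemokine and receptor genes in each of 13 olfactory bulb libraries (points), by group, with the mean and SD of each group as bars. Ccl12 is higher in all 6 exposed libraries than in all 7 controls, Cxcl10 is higher at 10 mg/kg, Cxcl12 is lowest in the 3 libraries at 10 mg/kg, and Ccr2 and Cxcr4 lie lower in the controls of the 2nd set than in those of the 1st.

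Cx3cl1 (chromosome 8, 94772009 to 94782423), the neuronal ligand of the microglial receptor Cx3cr1, varied between libraries of 1 group more than with exposure. It stood at 204, 512 and 547 CPM at 10 mg/kg, against 503, 229 and 611 CPM in the controls of the 2nd set. In the libraries at 3 mg/kg it stood at 347, 412 and 399 CPM, against 431, 360, 434 and 381 CPM in the controls of the 1st set. Replicate 1 at 10 mg/kg and control replicate 2 of the same set held less than any other library. The log2 fold changes were -0.09 (SE 0.379) at 10 mg/kg and -0.06 (SE 0.355) at 3 mg/kg, with no call.
The widest spread of Cx3cl1 within a group was 2.69-fold, and 596 of 12720 genes with a mean of at least 5 CPM (4.69%, Cx3cl1 included) were as wide or wider, where the median gene spread 1.4-fold. Its receptor Cx3cr1 stood at 45.3, 54.9 and 44.7 CPM at 10 mg/kg, against 39.4, 29.8 and 31.3 CPM in the controls of the 2nd set. It varied more in the 1st set, at 5.41, 34.5 and 38.7 CPM at 3 mg/kg, against 40.2, 36.3, 4.12 and 3.19 CPM in the controls of the 1st set. Of the 7 libraries of the 1st set, 3 thus held several-fold less Cx3cr1 than the rest, and only 22 of the 12720 genes spread as widely within a group. The other 8 homeostatic microglia markers summed to 459 to 495 CPM at 10 mg/kg against 467 to 495 CPM in the controls, and to 467 to 489 CPM at 3 mg/kg against 470 to 493 CPM in the controls.

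Levels between genes were compared per kb of merged exons, since raw CPM grows with transcript length. At 10 mg/kg the order of means was Cx3cl1 (107 ± 48 CPM per kb, SD, n = 3), Ccl12 (16.1 ± 9.33), Cxcr4 (4.89 ± 0.778), Cxcl12 (4.04 ± 0.674), Ackr3 (2.6 ± 0.463), Cxcl10 (2 ± 0.198), Ccl2 (0.755 ± 0.612) and Ccr2 (0.0908 ± 0.0591). In the controls of the 2nd set the order was Cx3cl1 (114 ± 50.1, n = 3), Cxcl12 (6.4 ± 1.17), Cxcr4 (5.04 ± 1.58), Ackr3 (2.57 ± 0.505), Ccl12 (0.372 ± 0.327), Cxcl10 (0.217 ± 0.0411), Ccr2 (0.0227 ± 0.0157) and Ccl2 at 0. Ccl12 thus stood above Cxcl12 and Cxcr4 in every library at 10 mg/kg and below both in every control library. Cxcr4 and Cxcl12 overlapped in both groups, as did Ccl12 and Cxcl10 in the controls, so their order is not larger than the spread.
At 3 mg/kg Cxcr4 averaged 7.61 ± 0.802, Cxcl12 6.18 ± 0.282 and Ccl12 5.82 ± 1.12 CPM per kb (SD, n = 3), of which Ccl12 overlapped Cxcl12. In the controls of the 1st set Cxcr4 averaged 7.87 ± 0.848, Cxcl12 6.97 ± 0.541 and Ccl12 0.864 ± 0.147 CPM per kb (SD, n = 4).

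**Figure D2:**
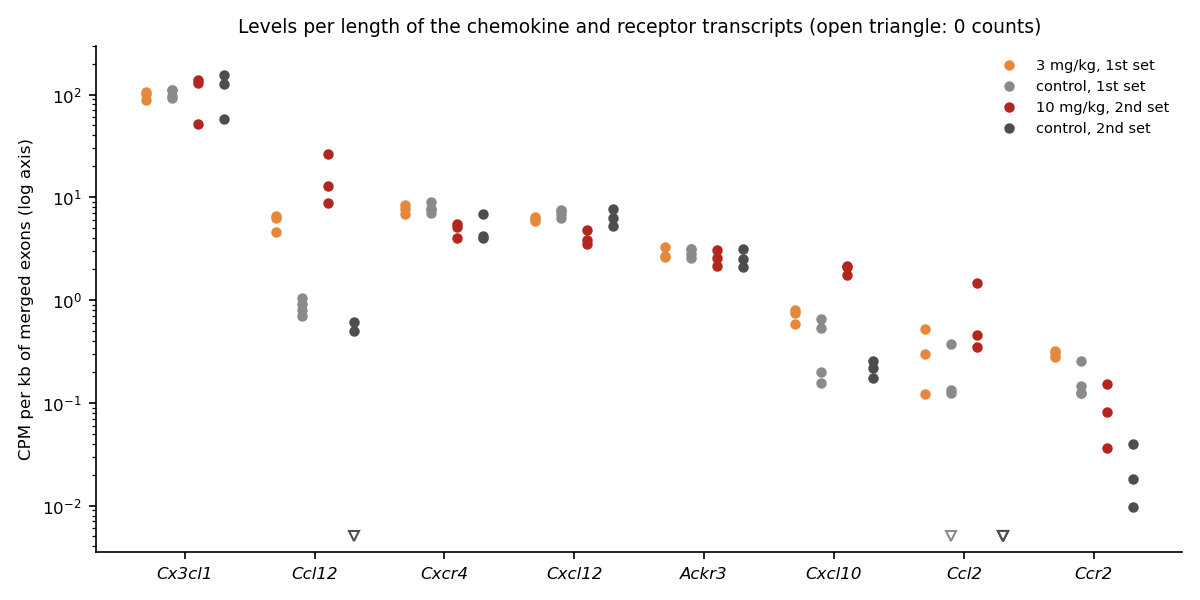
Level per kb of merged exons (CPM per kb, log axis) of each of the 8 genes in each library (points), with an open triangle at the foot of the axis for a library with 0 counts. Cx3cl1 is the most abundant gene throughout, and Ccl12 lies between 8.77 and 26.6 CPM per kb at 10 mg/kg, above Cxcr4 and Cxcl12.

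The untreated controls of the 2nd set were compared with those of the 1st in the same fit of all 13 libraries, so that exposed libraries entered the filter and the estimate of spread. Ccr2 and Cxcr4 passed as lower in the 2nd set, 2 of 7 tested members, where 8.74% of all genes were lower and 10.5% higher. The members were selected on their levels in these libraries too, so nothing is read from this count. Ccr2 averaged 0.153 ± 0.106 CPM in the controls of the 2nd set (SD, n = 3) and 1.1 ± 0.429 CPM in those of the 1st (n = 4), on 1, 7 and 2 counts against 23, 12, 12 and 14. It passed the filter on low counts through the libraries of the 1st set, where it was high, so no p is given for it and nothing is read from its call. Cxcr4 had a log2 fold change of -0.63 (SE 0.186, edgeR adjusted p = 0.029), at 9.11 ± 2.83 CPM in 2nd set controls (SD, n = 3) and 14.2 ± 1.5 CPM in 1st set controls (n = 4). The Cxcr4 call was lost without control replicate 2 or 4 of the 1st set, or 1 or 3 of the 2nd, at adjusted p up to 0.0807. Ccl12 lay lower in all 3 controls of the 2nd set, as 14.6% of all genes did, at a log2 fold change of -1.14 without a call. Ccl12 passed the filter through the exposed libraries, where it was high, so no p is given for it here.

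Whether the response differs between the doses was tested as a contrast of its own. No member passed. Ccl12 had a difference in log2 fold change of 2.60 (edgeR adjusted p = 0.608), Cxcl10 2.28 (adjusted p = 0.547) and Cxcl12 -0.49 (adjusted p = 0.725), and these 3 had an unadjusted p under 0.05, as 5.99% of all genes did. Only 1 gene of 17467 (0.00573%) passed. Ccl12 and Cxcl10 passed the filter on low counts through exposed libraries, so nothing is read from their p-values here.

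Further genes of the family were taken by name: 65 ligands and receptors, members included, of which 10 had 0 counts in every library, 31 had too few to be tested and 24 were tested, 7 of them members. At 10 mg/kg 3 of these passed as higher, Ccl12, Cxcl10 and Cxcl5, and 1 as lower, Cxcl12. Of the 24, 18 had a positive log2 fold change, beside 47.2% of all genes, with a median of 0.60. At 3 mg/kg none of the 24 passed edgeR's test and 4 were higher at an unadjusted p under 0.05, beside 1.31% of all genes. At that dose 13 were positive and the median was 0.09. The 24 include 7 members selected on fold changes. Of the genes named here, Ccl12, Cxcl10, Ccl7 and Ccr1 passed the filter on low counts through exposed libraries, where they were high. The list thus leans to positive values in advance, and neither these counts nor the dose tests of those genes support anything.

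Of 5 G protein coupled receptors tested in this list, none passed edgeR's test at 10 mg/kg, where Ccr2 and Ccr1 had the smallest p. Ccr1, a receptor of CC ligands on monocytes and neutrophils, averaged 1.16 ± 0.0962 CPM at 10 mg/kg and 0.334 ± 0.265 CPM in the controls of the 2nd set (SD, n = 3 each). In the 3 mg/kg libraries it averaged 1.06 ± 0.188 CPM (n = 3), against 0.476 ± 0.27 CPM in the controls of the 1st set (n = 4). The exposed libraries lay above the controls of their set at both doses. The log2 fold change was 1.79 at 10 mg/kg (SE 0.541, edgeR adjusted p = 0.199) and 1.13 at 3 mg/kg (SE 0.514, adjusted p = 1).

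Among CC ligands 1 of 7 tested passed at 10 mg/kg, Ccl12. Ccl7, another monocyte attractant beside Ccl2 and Ccl12, averaged 0.668 CPM at 10 mg/kg against 0.0683 CPM in the controls (log2 fold change 3.14, SE 0.962, edgeR adjusted p = 0.205). Among CXC, CX3C and XC ligands 3 of 7 passed. Cxcl5, a neutrophil attractant, stood at 2.88, 2.97 and 2.28 CPM at 10 mg/kg, against 0.329, 0.657 and 0.679 CPM in the controls of the 2nd set. Its log2 fold change was 2.24 (SE 0.403, adjusted p = 0.0182) at 10 mg/kg and -0.23 (SE 0.423, adjusted p = 1) at 3 mg/kg. The difference between these responses, 2.47, had an adjusted p of 0.544. The call at 10 mg/kg was lost with a replicate block (edgeR adjusted p = 0.185) and when the 2nd set was fitted alone (adjusted p = 0.102). It was also lost without replicate 1 or 2 at 10 mg/kg or control replicate 1 or 3 of that set, with adjusted p up to 0.0666 over these 4 fits.
Neutrophil ligands too low to be tested summed to 46 counts at 10 mg/kg against 2 in the controls of the 2nd set for Cxcl1, and to 19 against 0 for Cxcl2 (at least 5.57-fold). Their receptor Cxcr2 summed to 15 against 0 (at least 4.4-fold), and the lymphocyte ligand Cxcl13 to 14 against 0 (at least 4.11-fold). At 3 mg/kg, in 3 libraries against 4 controls, Cxcl1 summed to 13 counts against 8 and Cxcl2 to 5 against 1. Cxcr2 summed to 5 against 5 there and Cxcl13 to 9 against 5. These genes were picked, after their values were seen, from 31 with too few counts to be tested. Others went the other way, as Ccr6 with 3 counts at 10 mg/kg against 10, so no pattern is read from them.

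Of 5 atypical receptors tested none passed at 10 mg/kg. The smallest p was that of Gpr182 of lymphatic and sinus endothelium (log2 fold change 0.68, SE 0.269, edgeR adjusted p = 0.387). Ackr1, the chemokine receptor of venules, had 1.46 (SE 0.804, adjusted p = 0.645). Of 7 enzymes that cut chemokines 1 passed at 10 mg/kg, Ctss, the cathepsin that sheds Cx3cl1. It averaged 68.4 CPM against 42.4 CPM in the controls (0.69, SE 0.145, adjusted p = 0.0475) and passed under 7 of 20 other settings. Mmp14 had 0.40 (SE 0.141, adjusted p = 0.315). Of 20 signalling genes below the receptors 18 were found by symbol, 17 were tested and none passed edgeR's test at 10 mg/kg. Rac2 and Dock2, which drive leukocyte migration, had the smallest p (1.17, SE 0.302, adjusted p = 0.116, and 0.49, SE 0.129, adjusted p = 0.128).

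**Figure D3:**
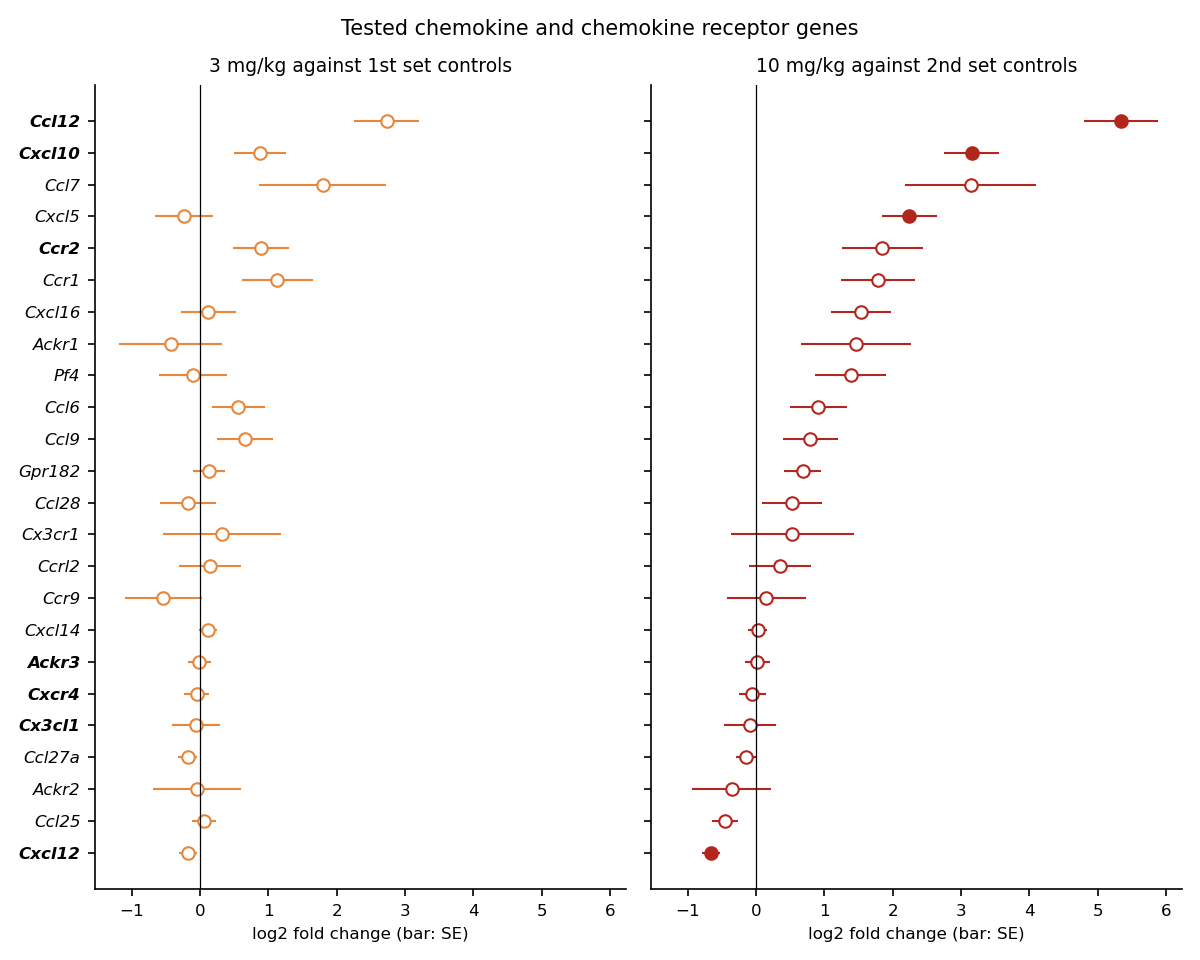
Log2 fold change (horizontal axis, bars are SE) of 24 tested ligands and receptors at 3 mg/kg against the controls of the 1st set (left) and at 10 mg/kg against those of the 2nd (right), with filled points for genes at an adjusted p under 0.05 and members in bold. At 10 mg/kg 3 genes pass on the right of 0 and Cxcl12 on the left, and at 3 mg/kg no point is filled.

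Markers of cells that carry these receptors moved with the exposed groups in part, and their part in the results was not tested. The 9 monocyte markers other than Ccr2, of which the lysozyme gene Lyz2 gave most, summed to 15.5, 22.4 and 32.4 CPM at 10 mg/kg, against 10.7, 12.5 and 8.7 CPM in the controls of the 2nd set. The sums at 3 mg/kg were 23.5, 14.6 and 20.8 CPM, against 16.3, 16.1, 13.8 and 12.3 CPM in the controls of the 1st set. The groups parted at 10 mg/kg and overlapped at 3 mg/kg, and none of the 4 tested monocyte genes passed edgeR's test at either dose.
The 9 neutrophil markers summed to 11.3 to 15.4 CPM at 10 mg/kg against 5.06 to 5.79 CPM in the controls. Of these, 1 of 3 tested passed (S100a9, log2 fold change 2.59, edgeR adjusted p = 0.00845). S100a9 passed the filter on low counts through exposed libraries, where it was high, so nothing is read from its call. Csf3r, S100a8 and S100a9 gave most of these sums, while Ly6g had 0, 0 and 0.0798 CPM at 10 mg/kg. Neutrophil sums at 3 mg/kg ran from 7.28 to 10.2 CPM against 6.15 to 8.65 CPM in the controls. The 8 perivascular macrophage markers summed to 39.4 to 52.4 CPM at 10 mg/kg against 26.9 to 36.5 CPM in the controls, and 1 of 8 passed (Cd163, 1.72, adjusted p = 0.0488). For the same markers, sums at 3 mg/kg ran from 54.7 to 71.3 CPM against 54.2 to 79.1 CPM. Red blood cell genes summed to 114, 208 and 302 CPM at 10 mg/kg against 97.2 to 119 CPM in the controls. Markers of endothelium and of meningeal fibroblasts, known sources of Cxcl12, summed to 245 to 306 and 117 to 184 CPM at 10 mg/kg, against 210 to 292 and 109 to 158 CPM in the controls, and none of 9 and 8 passed. Markers of the neighbouring cortex and striatum summed to 78.5, 78.4 and 130 CPM at 10 mg/kg, against 79.1, 69.5 and 55.6 CPM in the controls, highest in the replicate with the most Ccr2. No list had a gene at 0 in all libraries.

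**Figure D4:**
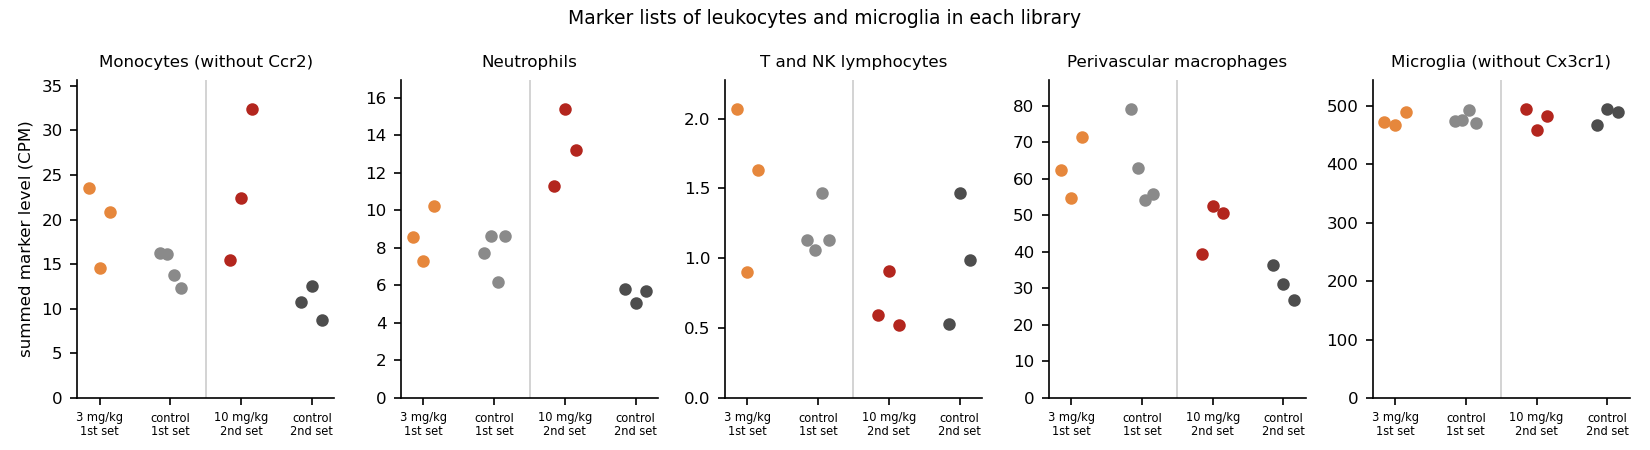
Summed level in CPM (vertical axis, from 0) of marker lists for monocytes (without Ccr2), neutrophils, T and NK lymphocytes, perivascular macrophages and microglia (without Cx3cr1) in each library (points). Neutrophil and monocyte sums at 10 mg/kg lie above all controls of the 2nd set, and the microglia sum without Cx3cr1 lies between 459 and 495 CPM in all 13 libraries.

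The members' patterns were also compared over the 13 libraries, on log2 CPM with each library centred on the control mean of its set. This likeness is a description, since the libraries share the exposure and the centring. Ccl12 followed Cxcl10 (Pearson r = 0.894) and Ccr2 (0.771) and ran against Cxcl12 (-0.818). Cx3cl1 stayed within 0.318 of 0 with every other tested member. Among 13654 genes the nearest to Ccl12 were Osmr (0.952), a receptor subunit for oncostatin M, Lrg1 (0.944), Sphkap (0.939) and Ms4a6d (0.938). The nearest to Cxcl10 were Acer2 (0.948), a ceramidase, Ifi30 (0.943), an interferon-induced thiol reductase of antigen processing, Cd53 (0.943) and Tmem252 (0.934). The nearest to Cxcl12 were Arhgap32 (0.972), Pltp (0.925), a phospholipid transfer protein, Adamtsl4 (0.916) and Gnb4 (0.877).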

How the data were processed

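The authors deposited 1 table with a raw count and an FPKM value per gene for each of the 13 libraries, per the file headers. The submitters' processing notes name HISAT2 and mm10. How reads were counted, with which annotation and on which strand is not given in the sources used here. Total RNA was made into libraries with a stranded kit, per the labels' protocols.

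Counts were scaled by TMM, filtered with filterByExpr and tested with the robust quasi-likelihood method of edgeR 4.0.16 (R 4.3.3), in 1 fit of 4 groups with 9 residual degrees of freedom and no batch term. Contrasts were each dose against the controls of its set, the difference of these, and 2nd set over 1st set controls, adjusted by Benjamini-Hochberg over 17467 genes at 0.05. An SE is the log2 fold change over the root of its F, and is approximate. CPM are counts scaled by the TMM-adjusted library total, and a control group at 0 is set at a floor of 3 counts over the group. The deposited FPKM divides by a length that exceeds the merged exons for several members, for example 1909 bases for Ccl2 against 1138, so levels per length use GENCODE M21 merged exons. Coordinates are those of the table.

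The 8 members and all lists were chosen with earlier results of these data known. Beside the members, the text names each listed family gene that passed at a dose, the 2 genes with the smallest p at 10 mg/kg of each other list, and the 4 nearest genes of Ccl12, Cxcl10 and Cxcl12 with a mean of at least 1 CPM. Cx3cr1, Art3, Gm17268, Cxcr3, Cxcr2, Ccr6, Cxcl1, Cxcl2, Cxcl9, Cxcl11 and Cxcl13 and the single markers were chosen after their values were seen. No 2 libraries of a group agreed within sampling noise (lowest chi-square per gene 6.09, r of log CPM 0.97 to 0.986). A result of 1 family gene is not reported here, and counts over the family leave it out. Alternatives were DESeq2 1.42.0 size factors and its Wald test, no filter, 1 CPM in every library, limma 3.58.1 on log2(FPKM + 1), separate fits, a replicate block and leaving out each library.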

Additional observations from a re-analysis of the deposited data

Results flagged for a closer look

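The controls of the 1st set were screened for 19 genes and 3 had a sample far from the others, where chance gives about 1 in 20 (0.95 of 19). In the controls of the 1st set, the venule receptor Ackr1 stood at 3.91 CPM in replicate 3, against 27.2 to 31.6 CPM in the other 3, so that the gap was 0.84 of the group's range, over Dixon's critical value. The receptor Ccr1 stood at 0.0756 CPM (1 count) in replicate 1, against 0.559 to 0.638 CPM in the other 3, a gap of 0.86 of the range. The receptor Ccr2 stood at 1.74 CPM in replicate 1, against 0.838 to 0.992 CPM in the other 3, a gap of 0.8291 of the range, barely over the critical value. The cause was not tested.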

How the results depend on the processing

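No value of the 7 tested members reversed a call. Of their 533 values under alternatives, 24 fell short of the threshold, 2 newly passed and the rest kept their side of it. Moves by more than 1 SE were counted only for values without a call in the main fit, and there were 18. Values that passed both times could move further without being counted. With limma on log2(FPKM + 1), another scale, the values at 10 mg/kg were 2.99 for Ccl12 and 0.807 for Cxcl10, both still passing. Over all 533, 40 changed sign, each without a call. Ccl2, with no value in the main fit, is left out of these counts. It passed at 10 mg/kg without the filter and with DESeq2, and DESeq2 also called it lower in the controls of the 2nd set than in those of the 1st. The count at 10 mg/kg, 112 (91 higher), was 69 with 1 CPM in every library, 5 with a replicate block, 4 with the 2nd set fitted alone and 281 with DESeq2, and 21 to 138 on leaving out 1 library. It was 21 without control replicate 3 and 65 without replicate 2 at 10 mg/kg, and 70 when the 1st set lost its control replicate 2. Family genes that passed, 4, were 0 with the 1 CPM filter, which removes Ccl12 and Cxcl10, 1 with the block (Ccl12), 1 with the separate fit (Cxcl10) and 2 to 4 on leaving out 1 library. At 3 mg/kg the count of 0 was 9 in a separate fit, 17 with DESeq2, 2 with limma and 0 to 2 on leaving out 1 library. The difference of doses, 1, was 2 with no filter, 0 with the block, 15 with DESeq2, 0 with limma and 0 to 6 on leaving out 1 library. The controls, 3364 (1837 higher, 1527 lower), gave 10 with the block, under which neither Ccr2 nor Cxcr4 (edgeR adjusted p = 0.284) passed. Leaving out 1 library gave 1340 to 4073. The split was 2293 higher and 1150 lower without the filter, and 1322 and 1940 with limma, where Ccr2 did not pass. Same-numbered samples did not deviate together (correlations from -0.34 to 0.13), so the numbers give no pairing. The cause of these shifts was not tested. Depth limits Ccl2, Ccr2, Cxcl10 and the lymphocyte markers, with few counts per library.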
